A study of Homo sapiens with 6 samples.

Results

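PLAAT4, PLAAT2 and LPCAT2 encode enzymes that remodel the fatty acid chains of membrane phospholipids. They are 3 of the 14884 gene symbols measured on 6 arrays in MM.1S cells, an established line from human multiple myeloma, a cancer of antibody-secreting plasma cells. They were picked by name, because their values with ATRA differed from those with DMSO on these same arrays, so that difference is described below without a test. The ATRA group, 3 arrays, came from cells given a pulse of Cfz for 1 h and then 12 h of culture with ATRA at 10 µM (all-trans retinoic acid, the form of vitamin A that binds retinoic acid receptors). The DMSO group, 3 arrays, had the same Cfz pulse and then 12 h with the solvent DMSO. Cfz is the usual abbreviation of carfilzomib, a proteasome inhibitor. Both groups had received it, its dose is not given in the sources used here, and cells without it were not analysed here. Every value comes from a single cell line, and the labels do not say if the 3 arrays in each group stand for separate cultures. Errors and p-values therefore describe only how these arrays varied, which may be technical.

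Phospholipids of cell membranes carry 2 fatty acid chains that are continually removed and replaced. PLAAT enzymes (phospholipase A and acyltransferase) take a chain off phosphatidylcholine, leaving a lysophospholipid, and can pass it to the amino group of phosphatidylethanolamine, which makes the precursor of the N-acylethanolamine lipid mediators. LPCAT enzymes (lysophosphatidylcholine acyltransferase) work in the other direction and put a chain back on the lysophospholipid. LPCAT2 can also add an acetyl group in place of a fatty acid, the last step in making platelet-activating factor, an inflammatory lipid, and is best known from macrophages. PLAAT4 was first described in skin cells as a gene induced by synthetic retinoids, under the names RARRES3 and TIG3. PLAAT2 is also called HRASLS2 and LPCAT2 is also called AYTL1.

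The labelled cell type fitted the levels of most of its defining markers. Of 10 plasma cell markers 7 were measured, and 6 of them (SDC1, CD38, IRF4, XBP1, SLAMF7 and MZB1) had group means between 8.29 and 11.07 on the log2 intensity scale, where the median symbol lay at 4.19. POU2AF1 was low, with a log2 difference of -0.25 from a DMSO mean of 4.25 (limma adjusted p = 0.383). The summed intensity of the 7 lay between 9025 and 9353 on ATRA arrays and between 7137 and 7420 on DMSO arrays. In the test described below 3 of the 7 (SDC1, CD38 and XBP1) rose, where 1.73% of all symbols did. The part of this marker shift in the results on phospholipid enzymes was not tested. Markers of other cell types, 23 measured of 39, had a median log2 level of 3.25. In limma's test 0 of them passed, where 3.80% of all symbols did, and with eBayes with trend and robust 0 passed, where 8.92% did. An unadjusted limma p under 0.05 was found for 3 of the 23, where 17.9% of all symbols had one. Monocyte, macrophage and granulocyte markers, 7 of 9 measured, summed to between 78.6 and 99.4 with ATRA and between 72.9 and 88.8 with DMSO.

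PLAAT4, the retinoid-induced phospholipase and acyltransferase, had intensities of 177, 147 and 162 on the 3 ATRA arrays and 52.5, 39.3 and 44.9 on the 3 DMSO arrays, in the linear units of the deposited table. All ATRA arrays lay above all DMSO arrays, and the lowest ATRA array was still 2.81-fold above the highest DMSO array. The group means were 162 ± 14.9 with ATRA and 45.6 ± 6.62 with DMSO (SD, n = 3 arrays each). The ratio of geometric means was 3.58-fold, or 1.84 on the log2 scale with a standard error of 0.13, which placed PLAAT4 at rank 23 among all increases. With DMSO its log2 level of 5.50 lay above every measured marker of another cell type except KRT18 (7.15), a keratin gene, so the gene was not at the bottom of the scale in either group. In bulk RNA, fewer cells that express a gene and less RNA of it per cell cannot be told apart.

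PLAAT2, a close relative of PLAAT4 with the same kind of activity, had intensities of 466, 556 and 467 with ATRA and 229, 148 and 199 with DMSO. The groups did not overlap, and the closest pair of arrays still differed 2.04-fold. The means were 496 ± 51.8 with ATRA and 192 ± 40.9 with DMSO (SD, n = 3 each), a ratio of 2.62-fold or 1.39 on the log2 scale (SE 0.17), at rank 31 among the increases. PLAAT2 was the most variable of the 3 genes within groups. Its residual SD of 0.25 on the log2 scale was above that of 79.0% of symbols, and DMSO replicate 2 was its lowest array, as it was for PLAAT4. Without DMSO replicate 2 the difference of PLAAT2 was 1.21, the lowest value with any array left out, and the highest was 1.53.

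LPCAT2, the acyltransferase that also makes platelet-activating factor, ran the other way. Its intensities were 61.8, 52.1 and 71.7 with ATRA and 227, 217 and 224 with DMSO. The DMSO arrays lay close together and the ATRA arrays were more spread, with log2 SDs of 0.23 with ATRA and 0.03 with DMSO, but the closest pair of arrays was 3.03-fold apart. The means were 61.9 ± 9.77 with ATRA and 223 ± 4.89 with DMSO (SD, n = 3 each). This is a ratio of 0.276, or a 3.63-fold lower level with ATRA, and a log2 difference of -1.86 (SE 0.13) that stood at rank 2 among all decreases. For all 3 genes the groups did not overlap. Over all symbols 24.7% had groups that did not overlap, and because the genes were chosen on this contrast nothing is read from their count.

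**Figure D1:**
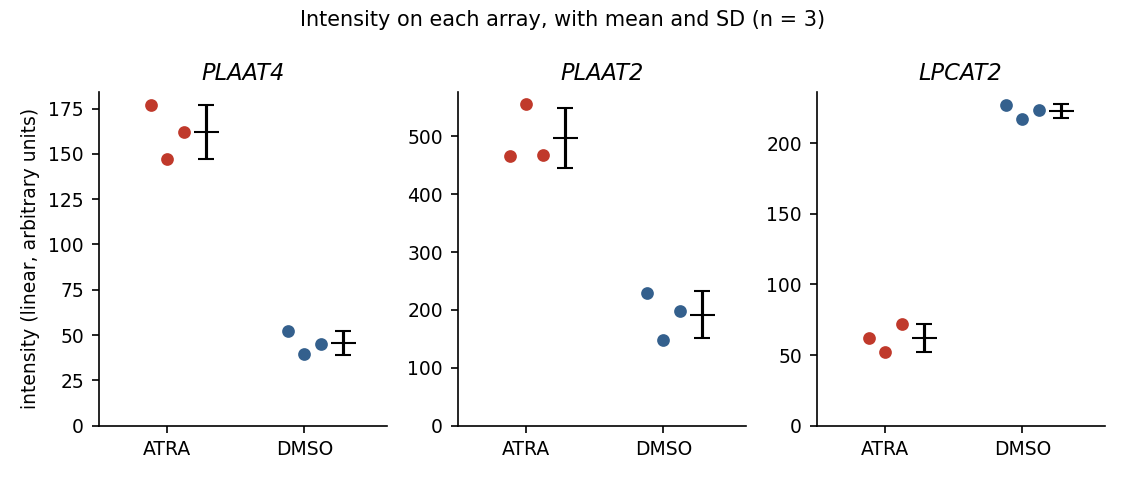
Linear intensity of PLAAT4, PLAAT2 and LPCAT2 on each array, with ATRA arrays left and DMSO arrays right in each panel, and the mean and SD of 3 arrays beside the points. PLAAT4 and PLAAT2 are higher on every ATRA array and LPCAT2 is lower on every ATRA array, with no overlap between groups.

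The other measured genes of both families entered by family and not by their values, though earlier results of these data were known. They were read from 1 fit over all symbols (limma on log2 values, Benjamini-Hochberg adjustment, threshold 0.05), in which 3.80% of symbols passed, 1.73% higher and 2.07% lower with ATRA. LPCAT1, which like LPCAT2 can make platelet-activating factor and is best known for surfactant lipid in lung, fell. Its intensities were 261, 250 and 259 with ATRA and 493, 471 and 458 with DMSO, tight in each group and without overlap. The means were 257 ± 5.71 with ATRA and 474 ± 17.6 with DMSO (SD, n = 3 each), a log2 difference of -0.88 (SE 0.085, limma adjusted p = 0.00264). LPCAT1 passed in all 15 alternatives, those that left out 1 array included, with adjusted p up to 0.0315.

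LPCAT3, the family member that prefers polyunsaturated chains and is known as a target of the liver X receptors, was at 417, 492 and 437 with ATRA and 327, 339 and 337 with DMSO. Every ATRA array was above every DMSO array, but the log2 difference of 0.42 (SE 0.10, 95% interval 0.19 to 0.65) did not pass over all symbols (limma adjusted p = 0.0673). It passed in 6 of 15 alternatives, among them quantile (adjusted p = 0.0460) and cyclic loess normalization (adjusted p = 0.0345), and in none of the fits with an array left out, where the adjusted p reached 0.181. LPCAT4, which acts on several lysophospholipids, had 179, 171 and 127 with ATRA and 198, 185 and 166 with DMSO. Its groups overlapped, and the difference of -0.22 did not pass (SE 0.15, 95% interval -0.57 to 0.14, limma adjusted p = 0.522).

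In the PLAAT family only PLAAT1 could be added, since PLAAT3 and PLAAT5 were not analysed here. PLAAT1, the family member known from heart, skeletal muscle and testis, had intensities of 6.50, 7.62 and 6.67 with ATRA and 6.77, 6.47 and 7.58 with DMSO. Its groups overlapped fully and the log2 difference was -0.0027 (SE 0.11, limma adjusted p = 0.993). That level is below 20 of the 23 markers of other cell types, so little can be said of this gene. The measured LPCAT family thus held 1 gene that fell beside LPCAT2, and 2 that did not pass, of opposite sign. Whether the array's probes for one PLAAT gene also bind the RNA of another was not tested.

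**Figure D2:**
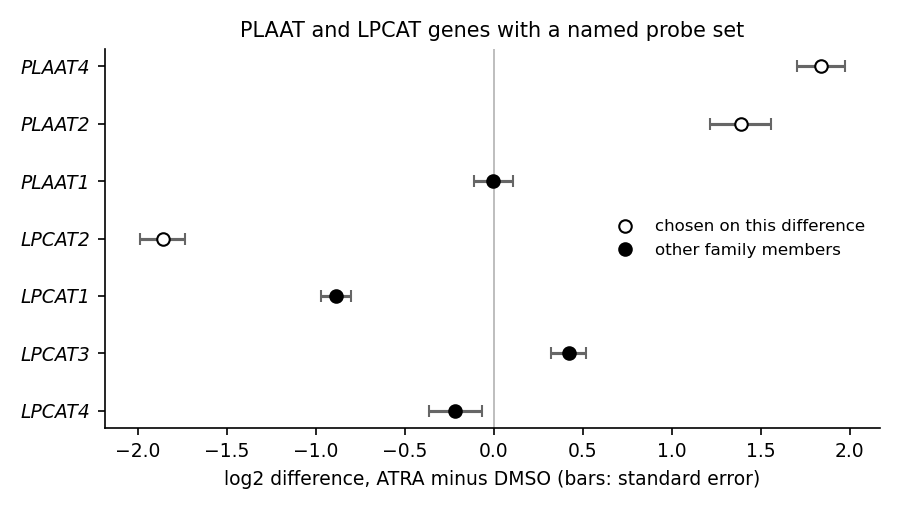
Log2 difference, ATRA minus DMSO, of the 7 PLAAT and LPCAT genes with a named probe set, with standard errors as bars. Open points are the 3 genes chosen on this difference. LPCAT1 lies at -0.88 on the same side as LPCAT2, LPCAT3 lies at 0.42 on the other side, and PLAAT1 lies at 0.

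The wider phospholipid pathways were described with 9 overlapping lists, the PLAAT and LPCAT families among them, holding 158 genes. The lists were chosen with earlier results of these data known, so their counts are a description only. Of these, 101 were measured and 57 were not analysed here. Leaving out PLAAT4, PLAAT2 and LPCAT2, 98 genes remained, of which 3 rose, 5 fell and 90 did not pass (8.16% called, 3.80% over all symbols). Listed genes were brighter than the rest, with a median log2 level of 5.50 where that of all symbols was 4.19. Among the brighter 50% of symbols, 13 of 67 listed genes (19.4%) passed and 15.4% of all symbols did. The count of 8 went down to 3 without ATRA replicate 2, ATRA replicate 3, DMSO replicate 1 or DMSO replicate 2, and to 4 without ATRA replicate 1 or DMSO replicate 3. The share over all symbols went down as well. With 1 array left out 3.06% to 4.08% of the listed genes passed, and 1.39% to 2.13% of all symbols did. LPCAT1, GPAT3 and TMT1A passed in all 6 of those fits.

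Among 12 measured acyltransferases of glycerol phosphate and lysophospholipids, leaving out the 3 genes, 3 fell and 9 did not pass. Over all symbols 2.07% fell and 3.80% passed in either direction. Without the dimmer 50% of symbols, 15.4% of those left passed. In mean, 10 of the 12 were lower and 2 higher with ATRA, with PLAAT1 counted among the 10 at -0.0027. The share of all symbols that were lower in mean was not counted, so nothing is read from this split. The median log2 difference of the 12 was -0.24, where that of all symbols was -0.01 and that of the brighter 50% of symbols was -0.05. These 12 genes were bright, with a median log2 level of 6.36 where that of all symbols was 4.19. Beside LPCAT1 the genes that fell were GPAT3, which starts glycerolipid synthesis at the endoplasmic reticulum, and ABHD5, best known as the activator of a triacylglycerol lipase. GPAT3 was at 63.8 ± 3.05 with ATRA and 104 ± 4.28 with DMSO (SD, n = 3 each), a log2 difference of -0.71 (SE 0.090, limma adjusted p = 0.00812). ABHD5 differed by -0.52 and lost its call whichever array was left out (limma adjusted p up to 0.119) and with quantile (0.0504) and cyclic loess normalization (0.0626). LPGAT1, a lysophosphatidylglycerol acyltransferase named after its value was seen, had a larger mean difference than LPCAT1, -0.94, but a wide error (SE 0.25) and did not pass (limma adjusted p = 0.102). It passed without DMSO replicate 3, where the difference was -1.20 (limma adjusted p = 0.0472), and under trended and robust eBayes (adjusted p = 0.0163).

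Of the phospholipases and lysophospholipases, 22 of 51 were measured. Of the 20 that are not PLAAT4 or PLAAT2, 1 rose and 19 did not pass (5.0% called, 3.80% over all symbols). Their median log2 difference was -0.0018. The gene that rose was PNPLA2, the main triacylglycerol lipase of lipid droplets, at 72.9 ± 1.91 with ATRA and 53.1 ± 3.63 with DMSO (SD, n = 3 each; log2 difference 0.46, limma adjusted p = 0.0427). Its 2 probe sets gave 0.46 and 0.09, and the call was lost with their mean (adjusted p = 0.222) and whichever array was left out (up to 0.138).

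In the list of platelet-activating factor metabolism, 7 of 13 genes were measured. LPCAT1 was the 1 of 6 beside LPCAT2 that passed (16.7%, with 3.80% over all symbols). Both genes of this list that add the acetyl group were therefore lower in mean with ATRA, LPCAT1 by test and LPCAT2 by the choice that put it here. The median log2 difference of the 6 was -0.21. PTAFR, the receptor of platelet-activating factor, named after its value was seen, differed by -0.37 (SE 0.27) and did not pass (limma adjusted p = 0.543). In N-acylethanolamine metabolism, the pathway that PLAAT enzymes feed, 11 of 16 genes were measured. NAAA, a lysosomal hydrolase that breaks N-acylethanolamines down, was the 1 of 9 other genes that passed (11.1%, with 3.80% over all symbols). It fell to 189 ± 11.4 with ATRA, against 285 ± 11.9 with DMSO (SD, n = 3 each; log2 difference -0.59, SE 0.093, limma adjusted p = 0.0178), and kept its call in 1 of the 6 fits with an array left out (adjusted p up to 0.0774). The median of the 9 was -0.14.

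Synthesis of phospholipid head groups was represented by 18 of 25 genes, with 1 that fell and 17 that did not pass (median log2 difference -0.07). That is 5.56% called, where 3.80% of all symbols were. LPIN2, a phosphatidate phosphatase, fell by 0.51 on the log2 scale (limma adjusted p = 0.0216). In a list drawn up around eicosanoid synthesis from released arachidonate, 19 of 22 genes were measured, 1 rose and 18 did not pass (median 0.02). The share called was 5.26%, again with 3.80% over all symbols. ALOX5AP, which presents arachidonate to the leukotriene-forming lipoxygenase, rose by 0.46 (limma adjusted p = 0.0321). Both calls were lost whichever array was left out, with adjusted p up to 0.0840 for LPIN2 and 0.111 for ALOX5AP.

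Lipid droplets are the second site, beside the endoplasmic reticulum, where LPCAT1 and LPCAT2 are found. In a list of droplet proteins and triacylglycerol turnover, 22 of 25 genes were measured. Of the 21 beside LPCAT2, 2 rose, 2 fell and 17 did not pass (median log2 difference -0.10). That is 19.0% called, where 3.80% of all symbols were. These listed genes were bright, with a median log2 level of 5.86 where that of all symbols was 4.19. Without the dimmer 50% of symbols, 15.4% of those left passed. TMT1A, a droplet-associated methyltransferase also called METTL7A, rose to 3150 ± 95.04 with ATRA, against 1638 ± 72.2 with DMSO (SD, n = 3 each). Its log2 difference was 0.94 (SE 0.087, limma adjusted p = 0.00238). PNPLA2 was the other gene that rose, and LPCAT1 and ABHD5 were those that fell. The lipase PNPLA2 and its activator ABHD5 thus stood on opposite sides, and each lost its call whichever array was left out.

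**Figure D3:**
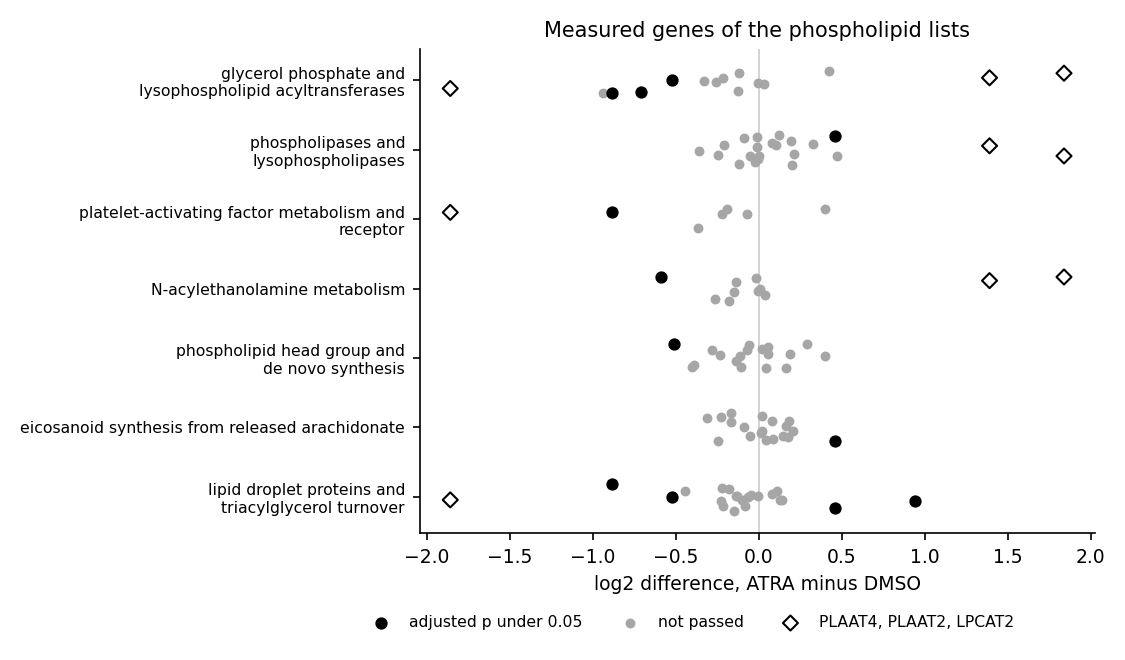
Log2 difference, ATRA minus DMSO, of each measured gene in 7 of the lists, with 1 row per list. Black points passed an adjusted p of 0.05, grey points did not, and open diamonds are PLAAT4, PLAAT2 and LPCAT2. Most grey points lie near 0, and the acyltransferase row has 10 of its 12 other genes below 0, PLAAT1 among them at -0.0027.

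PLAAT4 and PLAAT2 are next to each other on chromosome 11 in the gene table (GRCh38.p14), and PLAAT3 and PLAAT5 lie in the same cluster. Of the 10 other protein-coding genes within 5 places of either, 3 were measured. ATL3, which shapes the endoplasmic reticulum, differed by -0.18 (SE 0.092), RTN3, another shaping protein of that membrane, by -0.10 (SE 0.093) and ZFTA by 0.06 (SE 0.18). Around LPCAT2 on chromosome 16, 6 of 10 neighbours were measured, FTO, IRX3, IRX5, IRX6, CES1 and CES5A, with differences between -0.22 and 0.08. These 6 lay between 178 kb (IRX6) and 1387 kb (FTO) from LPCAT2. IRX6, CES1 and CES5A were dim, with group means between 2.71 and 3.38 on the log2 scale, so little can be said of them. In limma's test 0 of these 9 neighbours passed, where 3.80% of all symbols did. An unadjusted limma p under 0.05 was found for 0 of the 9, where 17.9% of all symbols had one. With eBayes with trend and robust 0 passed, where 8.92% of all symbols did. The lowest adjusted p was 0.385 for ATL3. The genes closest to the 3, among them PLAAT3, LGALS12, MMP2 and CAPNS2, were not analysed here.

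The genes whose profile over the 6 arrays was most like each of the 3 were found by the root mean square distance between log2 values, after each gene's own mean of 6 arrays was taken off. The distance counts the size of the group difference as well as its shape, so it follows the contrast on which the 3 genes were chosen and is a description only. Nearest to PLAAT4 were CXCR4, a chemokine receptor (distance 0.150 on the log2 scale), AMPD1, an AMP deaminase (0.150), and UAP1, which makes UDP-N-acetylglucosamine (0.171). CXCR4 had 1316 ± 73.1 with ATRA and 398 ± 44.7 with DMSO, and AMPD1 had 236 ± 16.4 with ATRA and 61.0 ± 6.01 with DMSO (SD, n = 3 each). PLAAT2 stood at place 12 in the order of likeness to PLAAT4, at a distance of 0.284, and PLAAT4 at place 37 in that to PLAAT2.

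Nearest to PLAAT2 were LCAT (0.156), RELN, a secreted matrix protein (0.156), and MAP3K5, a stress-activated kinase (0.198). LCAT encodes lecithin-cholesterol acyltransferase, which moves a fatty acid from phosphatidylcholine to cholesterol. It had 73.3 ± 16.4 with ATRA and 27.8 ± 2.14 with DMSO (SD, n = 3 each), and it is in none of the lists above. Nearest to LPCAT2 were RND3, a small GTPase (0.113), and the Tec family kinases TXK (0.139) and TEC (0.227). RND3 had 33.1 ± 5.17 with ATRA and 116 ± 6.33 with DMSO, and TEC had 170 ± 19.9 with ATRA and 523 ± 22.7 with DMSO (SD, n = 3 each).

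**Figure D4:**
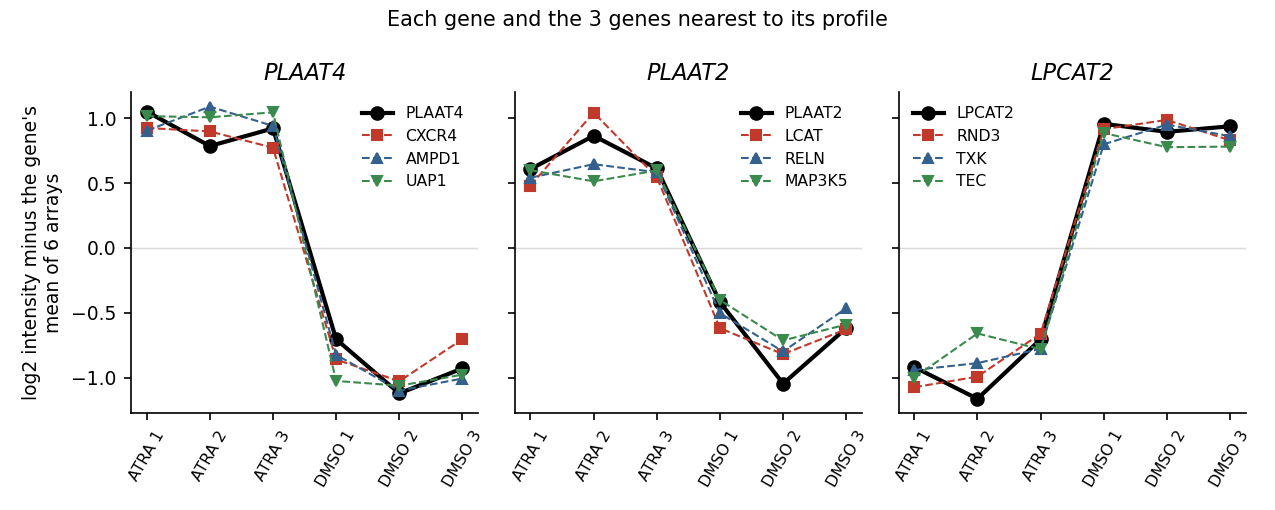
Log2 intensity minus the gene's own mean of 6 arrays, for PLAAT4, PLAAT2 and LPCAT2 (black) and the 3 genes nearest to each, with ATRA arrays left and DMSO arrays right on the horizontal axis. In each panel the step between groups is of similar size for all 4 genes. DMSO replicate 2 is the lowest array for all 4 genes of the PLAAT4 panel and of the PLAAT2 panel.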

How the data were processed

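Total RNA of 6 MM.1S samples was labelled with biotin by a whole-transcript kit and hybridised to 1-colour arrays, per the labels' protocols. The authors deposited 1 intensity for each probe set on each array, in linear units that were all above 0. RMA and limma are named in the submitters' processing notes, without versions or roles, and no genome build is named for the deposited values. A RefSeq gene table (GRCh38.p14) served only for names and gene order. The deposited normalization was kept, and compression of low values by it would remain in the differences. The unit assumed in the design was log2, so log2 was taken first, with no pseudocount.

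Of 53617 probe sets 16098 had 1 symbol in the platform annotation, and the rest are unnamed here. Each of 14884 symbols was represented by its brightest probe set (1 named probe set exists for each PLAAT and LPCAT gene measured). The test of ATRA against DMSO used limma 3.58.1 (R 4.3.3; lmFit, eBayes, two-sided, no block, no filter), adjusted over all symbols. Arrays correlated at 0.990 to 0.992 within groups and 0.985 to 0.987 between groups (across genes, which are not independent), and the number of arrays limits precision. The steps were tested on simulated data, where 4 of 118 calls were false. The real fit gave 565 calls, so the shares recovered in the simulation need not be those of the data. Changes of 0.5, 1 and 2 on the log2 scale were given to 67, 67 and 66 of 14884 genes. They were recovered in 10.4%, 62.7% and 98.5% of those genes. A gene that did not pass can therefore not be read as unchanged.

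The genes and lists were chosen with earlier results of these data known. Named genes are the 3, their measured relatives, in each list the called genes (up to 6), the neighbours within 5 places, and the 3 nearest protein-coding profiles. The main fit did not pair samples by replicate number. Deviations of same-numbered arrays correlated at 0.0087 to 0.017. Whether same-numbered arrays came from paired samples was not tested. Alternatives were a replicate block, leaving out each array, 3 normalizations, eBayes with trend and robust, the mean of probe sets, filters on the dimmer 50% or 25% of symbols and a pseudocount of 16.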

Additional observations from a re-analysis of the deposited data

How the results depend on the processing

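The differences of PLAAT4, PLAAT2 and LPCAT2 kept their sign in every alternative run. With 1 array left out they lay between 1.74 and 1.95 for PLAAT4, 1.21 and 1.53 for PLAAT2 and -1.97 and -1.74 for LPCAT2. They moved by more than 1 SD only with a pseudocount of 16, to 1.54 for PLAAT4 and -1.62 for LPCAT2, since adding a constant shrinks low values most. LPCAT3, not called, passed with quantile (0.46 on the log2 scale) and cyclic loess normalization (0.49), with trended and robust eBayes (0.42, adjusted p = 0.00183), without the dimmer 50% (0.42, adjusted p = 0.0199) or 25% of symbols (0.42, adjusted p = 0.0455) and with the pseudocount (0.40). The count over all symbols (565, 257 higher and 308 lower) became 200 with a replicate block, 207 to 317 with 1 array left out, 1327 with trend and robust, 1143 without the dimmer 50% and 1218 with the pseudocount, and its split turned to 301 higher and 267 lower with quantile normalization, 313 and 239 with cyclic loess and 113 and 87 with the replicate block. More genes were higher than lower also in 5 of the 6 fits with an array left out, the exception being ATRA replicate 2. Trend and robust (494 and 833), the brighter 50% (436 and 707) and the pseudocount (452 and 766) leaned further towards lower. The count of other listed phospholipid genes (8 of 98) became 4 with the replicate block (4.08%, 1.34% over all symbols) and 3 to 4 with 1 array left out. It became 14 with trend and robust (14.3%, 8.92% over all symbols) and 15 with the pseudocount (15.3%, 8.18% over all symbols). Without the dimmer 50% it was 13 of 67 (19.4%, where 15.4% of all symbols left passed). The share over all symbols thus moved in the same direction each time. The replicate block ended the calls of ABHD5, ALOX5AP, LPIN2, NAAA and PNPLA2 and left those of LPCAT1, GPAT3 and TMT1A, while LPGAT1 passed under it (-0.94, adjusted p = 0.0371). Fits with fewer arrays or a block have fewer degrees of freedom. Dim genes such as PLAAT1 could not be judged.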
